A study of Mus musculus with 24 samples.

Results

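Embryoid body formation in Prmt1 knockdown cells was followed by setting 3 arrays of day 4 embryoid bodies of the knockdown line (siPRMT1 day 4) against 3 arrays of undifferentiated embryonic stem cells of the same line (siPRMT1 ES). These 6 of the study's 24 arrays were chosen by their titles. The cells were of the established mouse embryonic stem cell line D3, with Prmt1 knocked down. The control line had received a scrambled sequence in its place, and its 3 day 4 arrays (siSCR day 4) and 3 ES arrays (siSCR ES) are used below to test whether a change differed between the lines, and for a few levels set beside those of siPRMT1. The other 12 arrays, of embryoid bodies of both lines kept for 12 h with the vehicle DMSO or with all-trans retinoic acid, helped to estimate the spread of each gene. Undifferentiated cells of both lines grew in serum medium and had been taken off feeder cells by 3 or more passages on gelatin, whereas embryoid bodies were aggregated in suspension without the cytokine LIF. Day 4 and ES arrays thus differ in LIF, in aggregation and in time together. The sources used here do not give whether the knockdown was stable or transient, nor whether each line was 1 clone. The labels call the 3 arrays of a group biological replicates. They do not say whether these came from separate cultures, so the p-values measure the spread between samples within groups, pooled over all 24 arrays.

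PRMT1 adds methyl groups to arginines and makes most of a mammalian cell's asymmetric dimethylarginine, with histone H4 and many RNA-binding proteins among its substrates. Mouse embryonic stem cells are held in an undifferentiated state by LIF acting through the transcription factor STAT3 and by a network of factors such as Nanog, Klf4 and Esrrb. Without LIF, aggregates form an outer layer of primitive and visceral endoderm, which absorbs and carries nutrients for the embryo, while the inner cells come to resemble the epiblast that will give rise to the germ layers.

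Each array gave 1 log2 expression value per probe set, and 19938 genes were compared, each by its brightest probe set. A change below is the log2 difference day 4 minus ES ± standard error from 1 limma fit to all 24 arrays, with 3 arrays per group, and a gene was called higher or lower at an adjusted p under 0.05. Precision is limited by the few arrays per group and depends on the spread within all 8 groups. The median standard error of a change was 0.0932, and 0.0695 in a fit to only the siPRMT1 day 4 and ES arrays. Replicates in the siPRMT1 day 4 and ES groups correlated at 0.997 or more over genes. The 6 siSCR arrays of DMSO and retinoic acid stood apart from the other 18, with an SD over genes of 1.98 to 2.07 against 2.15 to 2.27. They enter no comparison here, and without them the fit called 9625 genes between siPRMT1 day 4 and ES. All expression values are of bulk RNA, in which fewer cells of a type and less RNA per cell cannot be told apart.

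Prmt1, the targeted gene, read 10.35, 10.29 and 10.26 in the siPRMT1 day 4 arrays, against 9.79, 9.62 and 9.60 in the siPRMT1 ES arrays. The day 4 arrays all lay above the ES arrays. The change was 0.63 ± 0.0612 (limma adjusted p = 4.67e-08). A two-sided exact permutation test gave p = 0.1, and no smaller p is possible with 3 arrays against 3. In siSCR the change of Prmt1 was -0.11 ± 0.0612 (adjusted p = 0.202), and the difference between the lines was 0.74 ± 0.0865 (adjusted p = 2.64e-06). Relative to siSCR, the Prmt1 signal in siPRMT1 was 64.6% at day 4 and 38.6% in ES cells, so the depth of the knockdown was not the same at the 2 ends of the comparison. Of 9 protein arginine methyltransferase genes measured, 5 were called higher at day 4 and 2 lower (3 and 3 with arrays scaled to one SD), beside 23.0% and 18.4% of all genes. Prmt3, which methylates a ribosomal protein, rose by 0.54 and Prmt5, the main enzyme for symmetric dimethylarginine, by 0.22. Prmt7, which makes monomethylarginine, fell by 0.37 and the brain-enriched Prmt8 fell by 0.45. In siSCR the last 2 genes changed by 0.21 and 0.58, and the difference between the lines was called for both.

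In all, 8252 genes (41.4%) were called between siPRMT1 day 4 and ES, 4582 higher (23.0%) and 3670 lower (18.4%). Of the called genes, 55.5% were higher. That share was 49.3% after quantile normalization and 48.9% once all arrays had been given one SD, so which direction was more frequent depended on the scaling. A change of at least 2-fold was called for 653 genes (3.28%), 402 higher (2.02%) and 251 lower (1.26%), and one of at least 4-fold for 72 higher and 26 lower. In 8121 of the called genes the 3 day 4 arrays and the 3 ES arrays did not overlap. The calls rest on the same arrays, so this count adds no separate support. In siSCR 5632 genes (28.2%) were called, 2891 higher (14.5%) and 2741 lower (13.7%), of which 550 (2.76%) changed at least 2-fold, 197 of them higher (0.988%) and 353 lower (1.77%). The difference between the changes of the 2 lines was called for 4754 genes (23.8%), 2994 more positive in siPRMT1 (15.0%) and 1760 more negative (8.83%), and it reached at least 2-fold for 343 (1.72%).

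The 15 largest rises, 8.21-fold to 19.8-fold, were led by genes of the absorptive visceral endoderm. Ttr, which encodes the thyroid hormone carrier transthyretin, read 11.32, 11.30 and 11.22 in siPRMT1 day 4, against 6.75, 7.06 and 7.11 in siPRMT1 ES. Lrp2, which encodes the endocytic receptor megalin, read 12.33, 12.33 and 12.25 in siPRMT1 day 4, against 8.16, 8.24 and 7.96 in siPRMT1 ES. Only called genes whose groups did not overlap could enter the 15, so the gap between groups follows from the choice. The changes were 4.31 ± 0.115 (adjusted p = 1.65e-16) for Ttr and 4.18 ± 0.0841 (adjusted p = 2.21e-18) for Lrp2.

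Next in size were the pepsinogen gene Pga5 (4.05), the protease inhibitor gene Spink1 (3.65), Otx2 (3.43), the gastrokine gene Gkn2 (3.43) and the chloride channel family gene Clic6 (3.41). Otx2, a homeobox factor of the anterior epiblast and visceral endoderm, read 11.32, 11.27 and 11.24 in siPRMT1 day 4, against 8.02, 7.75 and 7.76 in siPRMT1 ES. The others were the cadherin gene Cdh9 (3.39), the hyaluronan synthase gene Has2 (3.38), the mucin gene Muc13 (3.34), the lipid kinase gene Dgkk (3.12), the lysosomal protease gene Ctsh (3.09), the galectin gene Lgals2 (3.09), the apolipoprotein gene Apoa1 (3.06) and Cyp26a1 (3.04), which encodes an enzyme that clears retinoic acid. All 15 were also called higher at day 4 in siSCR. The rise differed between the lines for 12 of them and was larger in siPRMT1 each time, although the genes had been picked for the size of that rise. The exceptions were Gkn2, Ctsh and Lgals2, with differences of 0.19, 0.05 and -0.33.

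**Figure D1:**
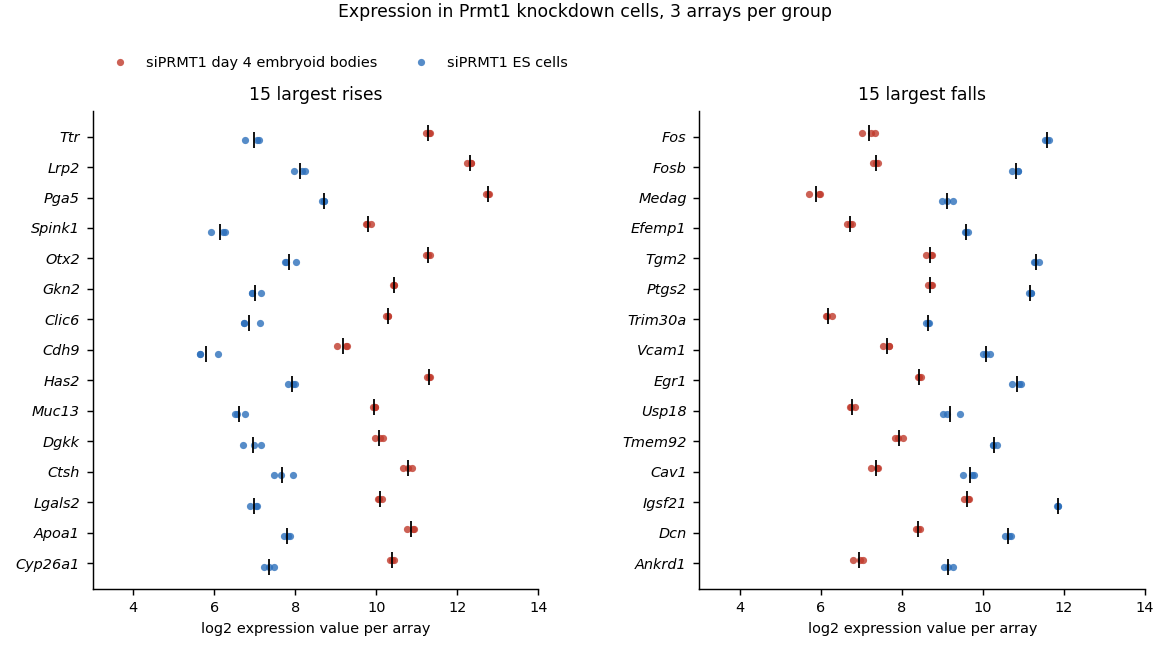
Log2 expression values (horizontal axes) of the 15 largest rises and the 15 largest falls, with 1 point per array, siPRMT1 day 4 in red above siPRMT1 ES in blue, and a black bar at each mean of 3 arrays. In no gene do the points of the 2 groups overlap, which the choice of genes required. Ttr and Fos show the largest gaps, 4.31 and 4.38.

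The 15 largest falls, 4.61-fold to 20.8-fold, were led by subunits of the transcription factor AP-1, which growth signals and stress induce within minutes. Fos read 7.22, 7.34 and 7.02 in siPRMT1 day 4, against 11.54, 11.63 and 11.57 in siPRMT1 ES. Fosb read 7.30, 7.35 and 7.42 in siPRMT1 day 4, against 10.86, 10.87 and 10.72 in siPRMT1 ES. The changes were -4.38 ± 0.113 (adjusted p = 1.1e-16) and -3.46 ± 0.0965 (adjusted p = 3.11e-16). The others included genes of the matrix, of adhesion, of interferon responses and of inflammation, and 16 of 19 fibroblast and feeder markers were called lower beside them. The first were Medag (-3.25), the fibulin gene Efemp1 (-2.88), the transglutaminase gene Tgm2 (-2.63) and Ptgs2 (-2.47), which encodes the prostaglandin enzyme cyclooxygenase 2. Next came the interferon-inducible genes Trim30a (-2.45) and Usp18 (-2.40), the adhesion gene Vcam1 (-2.45), the immediate early factor gene Egr1 (-2.42) and Tmem92 (-2.35). The last were the caveolin gene Cav1 (-2.32), Igsf21 (-2.24), the decorin gene Dcn (-2.23) and Ankrd1 (-2.21). All 15 were called lower in siSCR too, and the size differed between the lines for 12, not for Medag, Vcam1 and Cav1. It was larger in siPRMT1 for Fos, Fosb, Tgm2, Ptgs2, Egr1, Igsf21 and Dcn, and larger in siSCR for Efemp1, Trim30a, Usp18, Tmem92 and Ankrd1.

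Most genes of the visceral endoderm and of its regulators were higher at day 4 in siPRMT1. Of 22 measured genes for carriers and receptors of that layer, 16 were called higher at day 4 and 0 lower, with a median change of 1.40 against -0.0430 over all genes. The list includes Ttr, Lrp2, Spink1, Cdh9, Ctsh and Apoa1, named above among the largest rises, so its count is not separate from them. The averages of the list were 9.169 to 9.199 in the siPRMT1 day 4 arrays, against 7.596 to 7.640 in the siPRMT1 ES arrays. Cubn, the partner of megalin in uptake, read 13.11, 13.13 and 13.13 in siPRMT1 day 4, against 10.54, 10.75 and 10.34 in siPRMT1 ES, a change of 2.58. Its anchor gene Amn rose by 1.86 and the endocytic adaptor gene Dab2 by 1.83. Apob, the scaffold of lipoprotein particles, rose by 2.44, Apom by 1.61 and Apoa4 by 1.19, while Apoe rose by 0.29. Afp, the fetal albumin that marks later visceral endoderm, rose by 0.69, and Alb, Fga, Fgg, Apoa2, Trf and Hpx, secreted proteins of the later yolk sac and liver, were not called, at -0.27 to 0.07.

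Among 14 measured endoderm transcription factors 10 were called higher and 0 lower, with a median of 0.78. Hnf4a, a nuclear receptor that drives visceral endoderm genes, read 10.87, 10.85 and 10.73 in siPRMT1 day 4, against 8.75, 8.82 and 8.88 in siPRMT1 ES. The fork head factor genes Foxq1 and Foxa2 rose by 1.54 and 1.48, Gata4 by 1.17, Sox7 by 1.06, Hhex by 0.95, Sox17 by 0.85 and Gata6 by 0.70. Foxa1, Nr2f6 and the gut factors Pdx1 and Cdx2 were not called, at -0.34 to 0.16. In siSCR the carrier list gave 13 genes higher and 1 lower with a median of 0.56, and the factor list 9 higher and 1 lower with a median of 0.52. The change was called larger in siPRMT1 for 10 carrier genes and smaller for 1, Apoe, and larger for 7 of the factors and smaller for 0 (4 to 7 of the factors over the scalings tried). Among the widest were Spink1 (2.35), Cdh9 (1.87), Apoa1 (1.58), Apom (1.26), Hnf4a (0.91) and Foxa2 (0.79).

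The basement membrane that primitive endoderm secretes changed by subunit. The laminin genes Lama1, Lamb1 and Lamc1 rose by 1.06, 1.23 and 0.58 and the collagen IV genes Col4a1 and Col4a2 by 1.22 and 1.25. Lamb1 read 12.07, 12.06 and 11.98 in siPRMT1 day 4, against 10.92, 10.82 and 10.70 in siPRMT1 ES. Over the 18 measured genes of basement membrane and matrix 7 were called higher and 8 lower, the lower ones being Lama5, Fn1, Col1a1, Col1a2, Col3a1, Col5a1, Col6a1 and Tnc. Col1a1, Col1a2, Col3a1 and Col6a1 are also among the fibroblast and feeder markers, 16 of 19 of which were called lower. The rise of Lamb1 exceeded that in siSCR by 0.80 and that of Lama1 by 0.51, and both differences were called. Genes of cell adhesion split as well, 8 higher and 6 lower of 21 measured. The tight junction genes Cldn6, Ocln and Cldn7 rose by 2.61, 1.71 and 0.89 and the epithelial keratin gene Krt18 by 0.97, while Cldn4 fell by 0.20 and the mesenchymal genes Cdh11, Twist1, Zeb2 and Vim by 1.03, 0.61, 0.59 and 0.50. The epithelial cadherin gene Cdh1 was not called (-0.01). The neural cadherin gene Cdh2 read 8.89, 8.95 and 8.78 in siPRMT1 day 4, against 8.59, 8.66 and 8.56 in siPRMT1 ES, a change of 0.27 that was not called (adjusted p = 0.063), and it differed by 1.74 from a fall of 1.48 in siSCR.

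Among the 36 lists, that of the primed epiblast had the largest share called higher. The lists were chosen with earlier results of these data known, which could shape this rank. Of 20 measured, 18 were called higher at day 4 in siPRMT1, 1 lower (Etv4, an effector of FGF signalling, at -0.48) and 1 was not called (Sox3, -0.17), with a median of 1.26. Lef1, a transcription factor of Wnt signalling, read 9.85, 9.91 and 9.88 in siPRMT1 day 4, against 7.04, 6.99 and 7.00 in siPRMT1 ES. Fgf5, the growth factor that marks the epiblast after implantation, read 10.06, 10.03 and 10.02 in siPRMT1 day 4, against 7.26, 7.38 and 7.68 in siPRMT1 ES. Neither gene's groups overlapped, and the changes were 2.87 ± 0.0588 (adjusted p = 2.21e-18) and 2.60 ± 0.11 (adjusted p = 1.4e-13). Cldn6 rose by 2.61, Cer1, a secreted inhibitor of Nodal and BMP, by 2.34, Zic2 by 2.20, Grhl2 by 1.92, Sall2 by 1.46 and the kinase gene Pim2 by 1.15. In siSCR 13 of the 20 were called higher and 0 lower, with a median of 0.37. The difference was called for 14, with the change more positive in siPRMT1 for 12 and less so for Etv4 and Etv5. It was 1.57 for Lef1, 1.48 for Sall2 and 1.31 for Fgf5.

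The de novo DNA methyltransferases, which the epiblast uses to methylate its genome, were part of that rise. Dnmt3a read 10.66, 10.68 and 10.52 in siPRMT1 day 4, against 9.11, 8.99 and 9.11 in siPRMT1 ES. Dnmt3b read 11.36, 11.36 and 11.35 in siPRMT1 day 4, against 10.06, 10.00 and 9.88 in siPRMT1 ES. The changes were 1.55 ± 0.0602 and 1.38 ± 0.0589, against 0.28 and 0.21 in siSCR, and the differences of 1.28 (adjusted p = 2.28e-09) and 1.17 (adjusted p = 4.74e-09) were called. Their cofactor gene Dnmt3l rose by 0.96 and Uhrf1, which guides maintenance methylation, by 0.26. Dnmt1, the maintenance enzyme, was not called (0.08), while Tet1, which oxidises methylcytosine, fell by 0.16 and Tet3 rose by 0.55. Over the 14 measured genes of DNA methylation 7 were called higher and 3 lower. Among 17 measured imprinted genes 9 were called higher and 4 lower, with a median of 0.50. The growth factor gene Igf2 rose by 1.84, Peg3 by 1.78 and the cell cycle inhibitor gene Cdkn1c by 1.44, and Dlk1, Phlda2, Sgce and Meg3 fell by 1.35, 0.72, 0.60 and 0.35. Sgce and Meg3 were called higher in siSCR, by 0.49 and 0.84.

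Naive pluripotency genes moved in both directions, mostly down. Of 18 measured 11 were called lower at day 4 in siPRMT1 and 3 higher, with a median of -0.32. Klf4, a factor downstream of STAT3, read 10.58, 10.57 and 10.52 in siPRMT1 day 4, against 11.90, 11.88 and 11.85 in siPRMT1 ES, a change of -1.32. Fbxo15 fell by 1.09, Pecam1 by 1.07, Klf2 by 0.82, Tcl1 by 0.74, Tbx3 by 0.44, Prdm14 by 0.38 and Esrrb and Tfcp2l1 by 0.33 each. Nanog fell by 0.31, with 12.88, 12.95 and 12.87 in siPRMT1 day 4, against 13.21, 13.24 and 13.18 in siPRMT1 ES. Nr0b1, Nr5a2 and Fgf4 rose by 0.43, 0.30 and 0.20. Zfp42, often used to mark the naive state, was not called (-0.08), nor were Klf5, Gbx2 and Dppa3.

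In siSCR the same list gave 7 genes higher and 4 lower, with a median of 0.07. The difference between the lines was called for 10 genes, more negative in siPRMT1 for all 10. Tcl1 read 11.18, 11.25 and 11.09 in siPRMT1 day 4, against 11.95, 11.84 and 11.93 in siPRMT1 ES. The siSCR arrays ran the other way, with 11.99, 11.91 and 11.98 at day 4, against 11.39, 11.34 and 11.41 in ES. Klf2, Prdm14 and Dppa5a were likewise called lower in siPRMT1 and higher in siSCR. Of the core pluripotency factors, Pou5f1 and Sox2 were not called (-0.07 and 0.00). In that list 6 of 16 measured genes were called higher, with the Nodal-related ligand gene Gdf3 at 0.99 and L1td1, Sall4 and Lin28a at 0.33 to 0.38, and 2 were called lower, Tdgf1 at -0.45 and Dppa5a at -0.15. The median of that list, 0.05, was below 0 under quantile normalization and under scaling to one SD, which leaves it with no settled direction. In siPRMT1 50.0% of that list was called, against 41.4% of all genes.

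**Figure D2:**
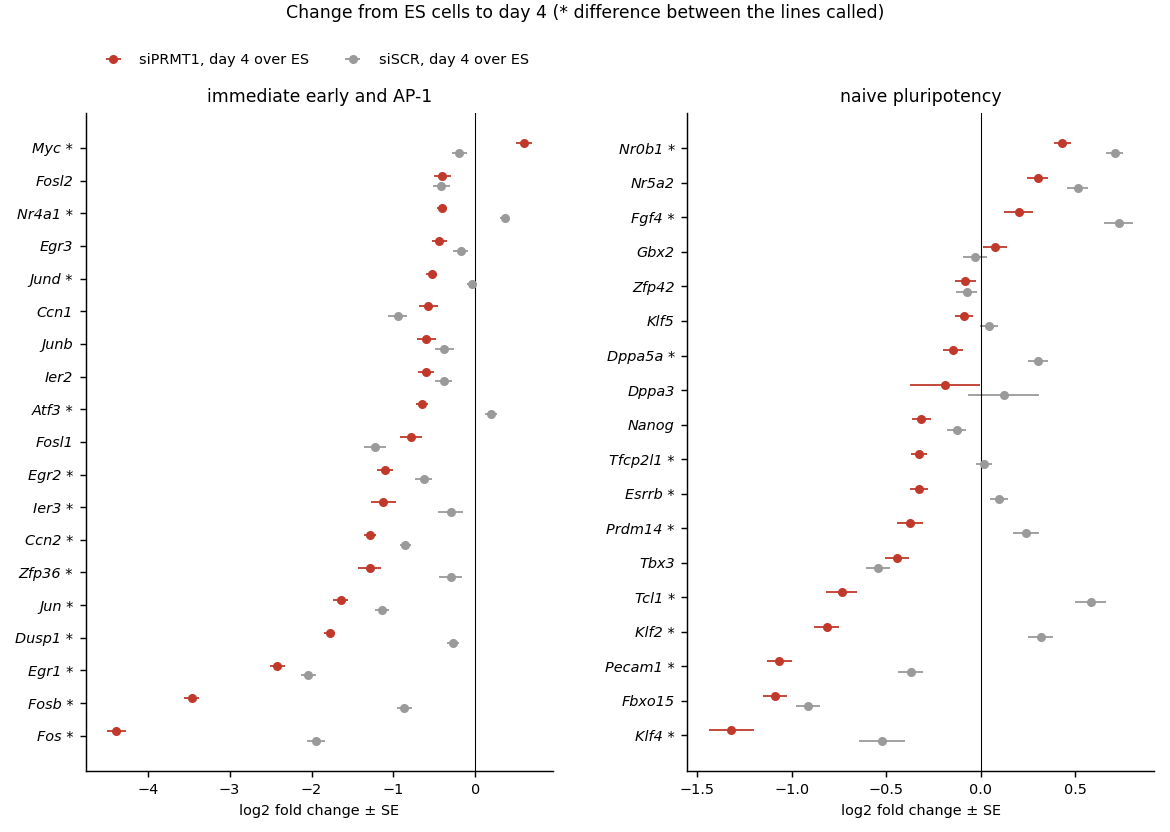
Log2 fold changes of day 4 over ES ± standard error (horizontal axes) for the measured immediate early and AP-1 genes (left) and naive pluripotency genes (right), siPRMT1 in red and siSCR in grey, with an asterisk where the difference between the lines was called. Most red points lie left of 0, down to -4.38 for Fos and -1.32 for Klf4, and 10 naive genes carry an asterisk.

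Of 13 measured genes of the LIF receptor and its STAT3 targets 9 were called lower in siPRMT1 and 2 higher, with a median of -0.58. Socs3, the feedback inhibitor that STAT3 induces, read 9.03, 9.09 and 9.07 in siPRMT1 day 4, against 11.06, 11.16 and 11.03 in siPRMT1 ES. The fall of 2.02 was 4.05-fold, against 1.45-fold in siSCR, and the difference was -1.48 (adjusted p = 1.14e-09). The kinase genes Pim1 and Pim3 fell by 1.22 and 0.88, the oncostatin receptor gene Osmr by 0.71 and Bcl3 by 0.58. The receptor gene Lifr rose by 0.69 and Myc by 0.59. In siSCR the list gave 8 genes lower and 2 higher.

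The immediate early and AP-1 list had the largest share called lower of the 36, a rank among lists chosen with earlier results of these data known. Of 19 measured genes 18 were called lower in siPRMT1, with a median of -0.78, and Myc was the 1 called higher. Beside Fos, Fosb and Egr1, the phosphatase gene Dusp1 fell by 1.78, Jun by 1.64, the mRNA decay gene Zfp36 and the matricellular gene Ccn2 by 1.29 each, Ier3 by 1.12 and Egr2 by 1.10. The averages of the list were 9.116 to 9.179 in the siPRMT1 day 4 arrays, against 10.33 to 10.39 in the siPRMT1 ES arrays. They were 9.206 to 9.274 in the siSCR day 4 arrays, against 9.834 to 9.879 in the siSCR ES arrays. The ranges of the 2 lines did not overlap at either time and lay closer together at day 4 than in ES cells. In siSCR 12 genes were called lower and 1 higher, and the difference between the lines was called more negative in siPRMT1 for 12 and more positive for 1. Atf3 and Nr4a1 fell by 0.65 and 0.41 in siPRMT1, against changes of 0.19 and 0.36 in siSCR.

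Among the ligands and feedback genes of Nodal, 9 of 16 measured were called higher and 6 lower. The ligand genes Nodal and Gdf3 rose by 0.29 and 0.99, the inhibitor genes Lefty1 and Lefty2 by 0.85 and 0.62 and the factor gene Foxh1 by 0.61. The coreceptor gene Tdgf1 and the mediator gene Smad3 fell by 0.45 and 0.50. The BMP list gave 6 higher and 7 lower of 20 measured (3 and 6 after quantile normalization and with arrays scaled to one SD). Bmp2, a ligand that visceral endoderm makes, read 8.63, 8.74 and 8.46 in siPRMT1 day 4, against 6.50, 6.45 and 6.27 in siPRMT1 ES, a change of 2.20. Bmp7 fell by 1.37, the BMP inhibitor gene Grem1 by 0.80 and Smad6 by 0.59, while Bmp4 was not called (0.10).

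Of 20 measured Wnt targets 7 were called higher and 2 lower, in all 45.0% against 41.4% of all genes. The secreted Wnt inhibitor genes Notum and Dkk1 rose by 2.02 and 2.01, Tcf7l2 by 0.89 and the feedback gene Axin2 by 0.85, and Ccnd1 and Cdx1 fell by 0.87 and 0.39. The change was called more positive than in siSCR for 8 Wnt targets and more negative for 1. Of 20 FGF ligands, receptors and ERK feedback genes 9 were called higher and 5 lower (6 and 6 with arrays scaled to one SD). Fgf15 rose by 0.93 in siPRMT1 and fell by 0.31 in siSCR, a difference of 1.25. The transcription factor gene Etv1 and the receptor gene Fgfr4 rose by 0.62 and 0.55, and Fgfr3 and Fgfr1 fell by 0.41 and 0.21. The sprouty feedback gene Spry2 rose by 0.26, and Spry1 and Spry4 were not called.

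**Figure D3:**
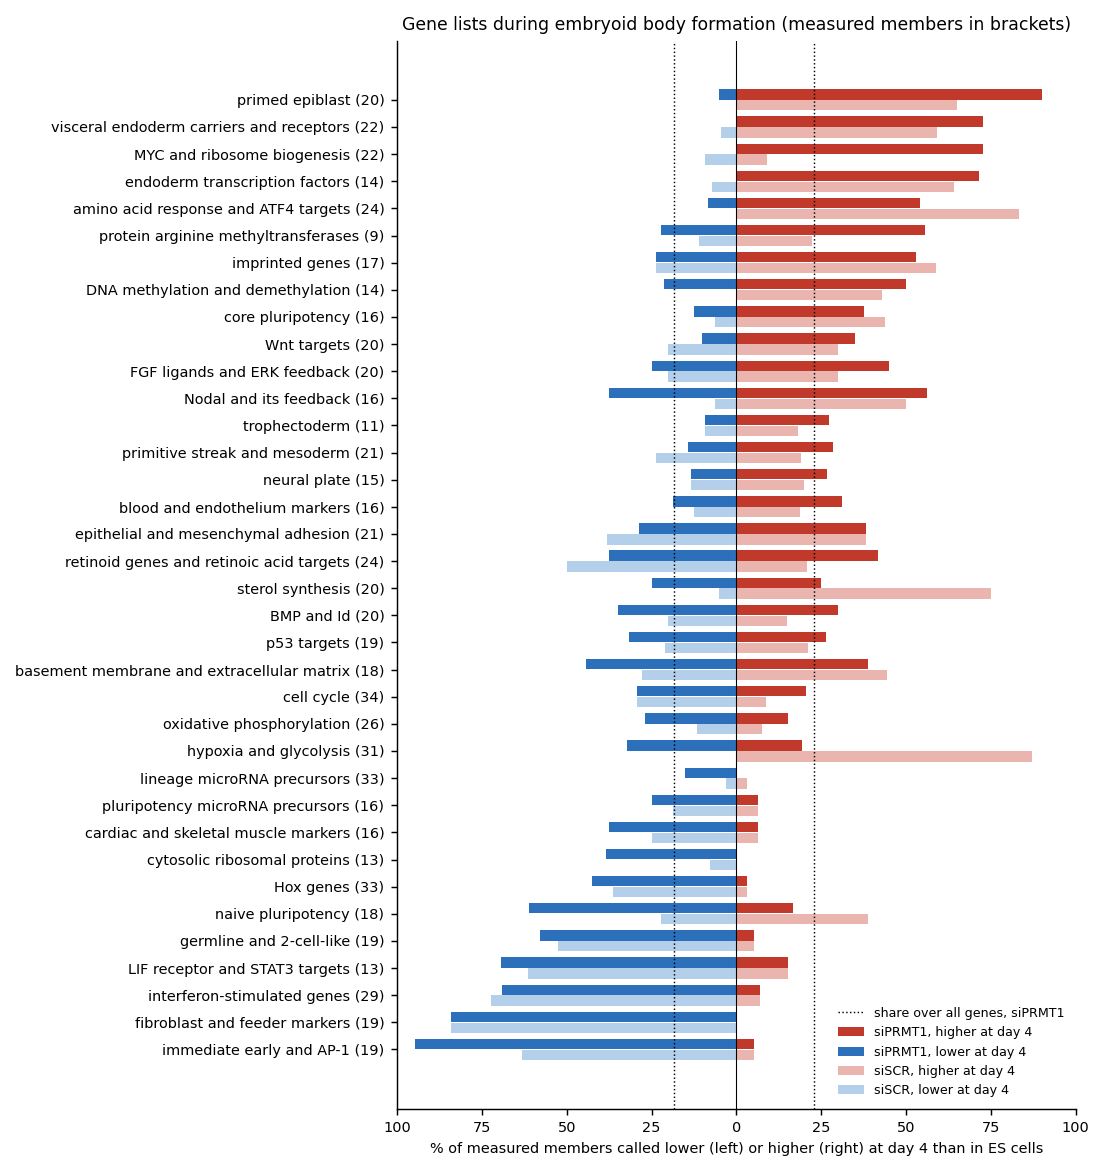
Share of measured members (percent, horizontal axis) called higher at day 4 than in ES cells to the right of 0 and called lower to the left, for 36 gene lists with their measured members in brackets. Dark bars are siPRMT1, pale bars siSCR, and the dotted lines mark the shares over all genes in siPRMT1, 23.0% higher and 18.4% lower. Primed epiblast genes stand at the top and immediate early genes at the bottom, and the hypoxia and MYC lists have dark and pale bars of unlike length.

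Of 21 measured genes of the primitive streak and mesoderm 6 were called higher and 3 lower. The share called was 42.9%, and 40.0% for the neural plate and 36.4% for the trophectoderm lists below, against 41.4% of all genes. Lhx1, which acts in the anterior visceral endoderm and the streak, read 8.80, 8.88 and 8.45 in siPRMT1 day 4, against 6.71, 6.63 and 6.86 in siPRMT1 ES. It rose by 1.98, Eomes by 1.01, Pdgfra by 0.57, Mixl1 by 0.51 and Kdr by 0.46. The streak and mesoderm genes Gsc, Mesp1, Evx1, Wnt3, Msgn1 and Tbx6 were not called, at -0.15 to 0.11. Pdgfra fell in siSCR by 0.56, a difference of 1.12. Neural plate genes gave 4 higher and 2 lower of 15, with Hesx1 at 1.68, Fabp7 at 0.92, Zfp521 at 0.89 and Tubb3 at 0.54 above, Pax6 at -0.89 and Ncam1 at -0.16 below, and Sox1 and Nes not called. Trophectoderm genes gave 3 higher and 1 lower of 11, with Plac1 at 1.38 and Tfap2c at -0.84, and Elf5 and Hand1 were not called.

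Markers of blood and endothelium gave 5 higher and 3 lower of 16, with a median of 0.03. The vascular genes Cdh5, Flt1, Tek, Esam and Kdr rose by 1.93, 1.14, 1.01, 0.47 and 0.46, and the embryonic globin genes Hbb-bh1, Hba-x and Hbb-y and the erythroid factor genes Gata1 and Klf1 were not called, at -0.10 to 0.07. Pecam1, an endothelial marker counted with the naive genes too, was among the 3 called lower and fell at least 2-fold. Cardiac and skeletal muscle genes gave 1 higher, Isl1 at 0.67, and 6 lower of 16, led by the intermediate filament gene Des at -1.51 and by Myl4 at -0.67. Myh6, Myh7, Actc1 and Nkx2-5 were not called. The share called was 50.0% of the blood and endothelium list and 43.8% of the muscle list, against 41.4% of all genes.

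Retinoid genes changed in both directions. Of 24 measured 10 were called higher and 9 lower in siPRMT1, against 5 higher and 12 lower in siSCR, and the change was called more positive in siPRMT1 for 11 and more negative for 1, Tgm2. Cyp26a1 read 10.44, 10.39 and 10.35 in siPRMT1 day 4, against 7.48, 7.36 and 7.22 in siPRMT1 ES. Rxrg, a retinoid X receptor, read 8.49, 8.63 and 8.47 in siPRMT1 day 4, against 6.73, 6.72 and 6.79 in siPRMT1 ES. It rose by 1.78 in siPRMT1, whereas the siSCR day 4 arrays read 6.85, 6.75 and 6.69, against 7.19, 7.05 and 7.10 in siSCR ES, a fall of 0.34. The receptor gene Rarg rose by 0.53 and the retinol dehydrogenase gene Rdh10 by 0.97, the homeobox cofactor genes Meis2 and Meis1 by 1.42 and 0.70 and Wt1 by 1.27. The binding protein gene Crabp1 and the germ cell gene Stra8 fell by 1.88 and 2.05. Tgm2, an enzyme gene induced by retinoic acid, read 8.74, 8.72 and 8.59 in siPRMT1 day 4, against 11.39, 11.28 and 11.26 in siPRMT1 ES, a change that differed from siSCR by -2.13. Of 33 measured Hox genes 1 was called higher (Hoxc9, 0.38) and 14 lower, at -0.22 to -0.78 (9 lower after quantile normalization). The same list gave 1 higher and 12 lower in siSCR. In siPRMT1 45.5% of the list was called, against 41.4% of all genes. Its averages in siPRMT1, 6.84 to 6.911 at day 4 and 7.041 to 7.169 in ES, lay below every array's median over probe sets, 7.47 to 7.67.

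Most germline and 2-cell-like genes were lower at day 4. Of 19 measured 11 were called lower, 1 higher (Prdm1, a repressor needed to specify germ cells, at 0.59), with a median of -0.78. Usp17la, Tdpoz3, Zfp352 and Usp17lc, which belong to gene families of the early embryo whose copies may share probes, fell by 1.99, 1.79, 1.26 and 1.15. The piRNA helicase gene Mov10l1 fell by 1.63, Mael by 1.37, Dazl by 1.18 and the synapsis gene Sycp1 by 0.78. Tdpoz3 read 7.52, 7.50 and 7.32 in siPRMT1 day 4, against 9.45, 9.29 and 8.97 in siPRMT1 ES. Its fall was 3.45-fold, against 11.5-fold in siSCR, and for 6 such genes (Tcstv3 and Tdpoz2 with the 4 above) the change was called less negative in siPRMT1, at differences of 1.17 to 1.74. Prdm1 rose by 2.24 in siSCR, more than in siPRMT1 by 1.65.

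The hypoxia and glycolysis list set the lines apart more than any other of the 36 by the number of differences called. This rank too is among lists chosen with earlier results of these data known. HIF, a factor that is stable when oxygen is low, turns on glycolytic enzymes, the angiogenic factor gene Vegfa and the mitophagy gene Bnip3 through sites that hold ACGTG or GCGTG. Of 31 measured genes 6 were called higher and 10 lower at day 4 in siPRMT1, with a median of -0.10, and the 10 became 15 after quantile normalization and 19 with arrays scaled to one SD. In siSCR 27 were called higher and 0 lower, with a median of 0.43. The averages of the list were 11.05 to 11.11 in the siPRMT1 day 4 arrays, against 11.13 to 11.18 in the siPRMT1 ES arrays, and 11.42 to 11.47 in the siSCR day 4 arrays, against 10.87 to 10.90 in the siSCR ES arrays. The difference between the lines was called for 25 genes, more negative in siPRMT1 for 24 and more positive for 1, P4ha2, beside 8.83% more negative and 15.0% more positive of all genes (23 to 27 more negative over the scalings tried).

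Aldoc, a glycolytic aldolase, read 10.37, 10.41 and 10.29 in siPRMT1 day 4, against 11.54, 11.47 and 11.50 in siPRMT1 ES. The siSCR arrays ran the other way, with 11.31, 11.29 and 11.25 at day 4, against 10.44, 10.39 and 10.36 in ES. The 2 changes were -1.14 ± 0.0578 and 0.89 ± 0.0578, and the difference was -2.03 ± 0.0818 (adjusted p = 3.65e-12). Bnip3 read 11.69, 11.68 and 11.69 in siPRMT1 day 4, against 11.41, 11.40 and 11.38 in siPRMT1 ES, and 11.99, 12.10 and 12.08 in siSCR day 4, against 10.74, 10.53 and 10.64 in siSCR ES. Both lines rose, siPRMT1 by 0.29 and siSCR by 1.42. Ndufa4l2 and the repressor gene Bhlhe40 fell by 0.81 and 0.86 in siPRMT1 and rose by 1.48 and 0.65 in siSCR, and Vegfa fell by 0.55 and rose by 0.51. The oxygen sensor gene Egln3 rose by 0.65 in siPRMT1 and 1.89 in siSCR, and Ndrg1 by 0.38 and 1.90. The glucose transporter gene Slc2a1, Ldha, Pkm, Hk2 and Tpi1 were not called in siPRMT1, at -0.12 to -0.01.

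Promoters of 2 such genes, for which the lines differed, are shown from RefSeq for build GRCm38.p6. Each window runs from upstream of the gene's start to just after it, on the strand of the gene, with ACGTG and GCGTG and their reverse complements in capitals. The window shown of the 2 listed for Aldoc is chr11:78322823-78323122 on the plus strand and the Bnip3 window chr7:138909457-138909756 on the minus strand.
Aldoc: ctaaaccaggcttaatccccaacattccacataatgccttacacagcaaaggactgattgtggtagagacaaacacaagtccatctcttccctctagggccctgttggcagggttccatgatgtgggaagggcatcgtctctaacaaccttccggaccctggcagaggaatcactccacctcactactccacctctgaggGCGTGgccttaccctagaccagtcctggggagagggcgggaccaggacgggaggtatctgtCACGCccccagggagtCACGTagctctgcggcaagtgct
Bnip3: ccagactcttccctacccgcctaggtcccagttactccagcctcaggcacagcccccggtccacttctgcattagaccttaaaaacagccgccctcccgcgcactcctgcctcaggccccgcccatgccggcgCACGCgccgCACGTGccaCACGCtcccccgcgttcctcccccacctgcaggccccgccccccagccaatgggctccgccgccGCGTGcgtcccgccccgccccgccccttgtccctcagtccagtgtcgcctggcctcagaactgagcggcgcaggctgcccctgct
The Aldoc window held 3 matches and the Bnip3 window 5, of which the 2 in CACGTG overlap on opposite strands. Of 27 list members with a window, 20 (74.1%) held ACGTG and 19 (70.4%) GCGTG, on either strand, against 21.8% and 35.2% of 27025 genes. These matches are letters in a window, and binding was not measured.

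**Figure D4:**
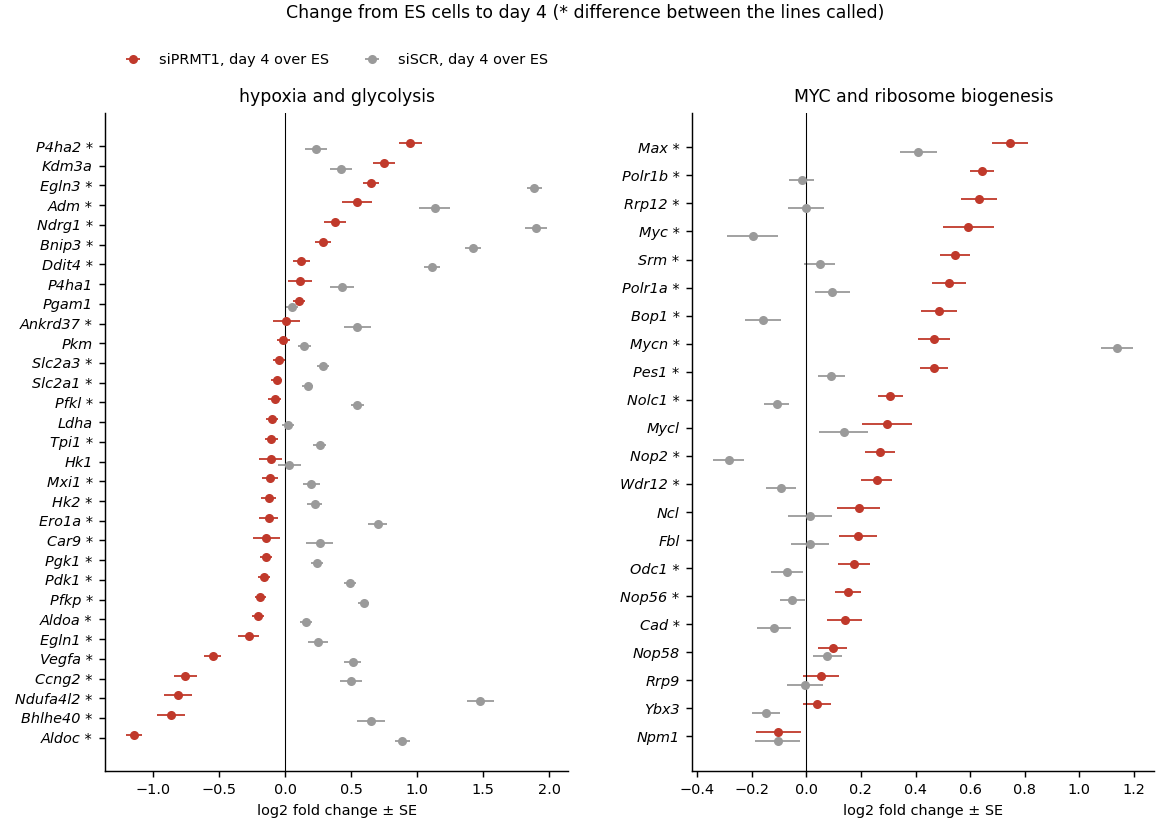
Log2 fold changes of day 4 over ES ± standard error (horizontal axes) for the measured genes of hypoxia and glycolysis (left) and of MYC and ribosome biogenesis (right), siPRMT1 in red and siSCR in grey, with an asterisk where the difference between the lines was called. In the left panel most grey points lie right of 0 and most red points left of their grey partners, and in the right panel most red points lie right of 0.

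Among the other metabolic lists, the called differences between the lines ran one way for ATF4 targets and for sterol synthesis genes. Of 24 measured ATF4 targets, which respond to amino acid shortage, 13 were called higher and 2 lower in siPRMT1, against 20 higher and 0 lower in siSCR. The cystine transporter gene Slc7a11 rose by 2.18, Cth by 1.30, the arginine transporter gene Slc7a3 by 1.25 and Trib3 by 0.81, and Atf3 and Ddit3 fell by 0.65 and 0.36. The difference was called for 10, more negative in siPRMT1 for all 10, among them Ddit4 at -0.99 and Nupr1 at -0.82. Of 20 measured sterol synthesis genes 5 were called higher and 5 lower in siPRMT1 (2 and 6 after quantile normalization and with arrays scaled to one SD), against 15 higher and 1 lower in siSCR. For 11 the difference was called, more negative in siPRMT1 for all 11, led by Tm7sf2 (-0.86) and Pmvk (-0.83). Of these promoters 1 of 16 held the SRE-1 core TCACNCCAC on either strand, against 1.44% of genes. Oxidative phosphorylation genes gave 4 higher and 7 lower of 26 (1 and 14 with arrays scaled to one SD), led by Cox7a1 at -1.31, and in siSCR 2 higher and 3 lower. The difference was called for 5 of the 26, beside 23.8% of all genes, more positive in siPRMT1 for 1 and more negative for 4. The share called in siPRMT1 was 42.3% of this list and 50.0% of the sterol list, against 41.4% of all genes.

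Genes of ribosome biogenesis had the opposite order of lines. Of 22 measured with the MYC family, 16 were called higher and 0 lower in siPRMT1, with a median of 0.28, against 2 higher and 2 lower in siSCR. The difference was called more positive in siPRMT1 for 14 and more negative for 1, Mycn (10 to 14 more positive over the scalings tried). Polr1b, a subunit of RNA polymerase I, read 11.95, 11.97 and 11.96 in siPRMT1 day 4, against 11.30, 11.31 and 11.34 in siPRMT1 ES. In siSCR it read 11.76, 11.68 and 11.72 at day 4, against 11.73, 11.74 and 11.75 in ES. The siPRMT1 groups did not overlap, while the siSCR groups did not differ by the test (-0.02, adjusted p = 0.863). Myc itself read 12.04, 12.08 and 11.96 in siPRMT1 day 4, against 11.52, 11.40 and 11.39 in siPRMT1 ES, a rise of 0.59, and its partner gene Max rose by 0.75. The processing factor genes Rrp12, Bop1 and Pes1 rose by 0.63, 0.48 and 0.47 and the spermidine synthase gene Srm by 0.54. Ribosomal protein genes gave 0 higher and 5 lower of 13, at -0.11 to -0.29 for the 5, and 2 to 13 lower over the alternatives. Their share called was 38.5%, against 41.4% of all genes.

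Of 34 measured cell cycle genes 7 were called higher and 10 lower (3 and 16 with arrays scaled to one SD). Ccnd1, Ccnd3 and Ccnb2 fell by 0.87, 0.56 and 0.40, and the inhibitor gene Cdkn1c rose by 1.44 and Cdk6 by 0.65. Of 19 measured p53 targets 5 were called higher and 6 lower, with Sesn2 at 0.63 and Fas at -0.83. The share called was 50.0% of the cell cycle list and 57.9% of the p53 list, against 41.4% of all genes.

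Of 29 measured interferon-stimulated genes 20 were called lower in siPRMT1 and 2 higher (Irf1 at 0.38 and Rsad2 at 0.34), with a median of -0.61. Ifit3, an antiviral gene, read 5.32, 5.22 and 5.31 in siPRMT1 day 4, against 7.33, 7.10 and 7.20 in siPRMT1 ES. Ifit1 read 6.65, 6.59 and 6.26 in siPRMT1 day 4, against 7.78, 7.84 and 7.67 in siPRMT1 ES. The groups did not overlap in either gene, and the changes were -1.92 and -1.26. Oas2 fell by 1.98, Mx2 by 1.96, Ifi27 by 1.79, Oasl2 by 1.69 and the antigen presentation gene B2m by 0.88. In siSCR 21 were called lower and 2 higher, with a median of -0.62. The difference between the lines was nevertheless called for 16 of the 29, more positive in siPRMT1 for 11, such as Ddx58 (0.83) and Ifit1 (0.80), and more negative for 5, such as Ifitm1 (-0.75) and Psmb9 (-0.59).

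Fibroblast and feeder markers moved with these genes. Of 19 measured 16 were called lower in siPRMT1 and 0 higher, with a median of -0.87, and in siSCR also 16 and 0, with a median of -0.999. Their averages were 7.633 to 7.659 in the siPRMT1 day 4 arrays, against 8.547 to 8.579 in the siPRMT1 ES arrays. They were 7.841 to 7.985 in the siSCR day 4 arrays, against 8.893 to 8.947 in the siSCR ES arrays. S100a4 fell by 1.61, the collagen crosslinking gene Loxl1 by 1.45, Thy1 by 1.34, Prrx1 by 1.29 and Pdgfrb by 1.11, and Lum, Tagln and Fap were not called. The averages of the interferon list were 7.923 to 8.015 in siPRMT1 day 4, against 8.674 to 8.721 in siPRMT1 ES. The part of feeder-derived RNA in the falls of matrix, adhesion, inflammatory and interferon genes was not tested.

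Both Ifit promoters are shown for the interferon response element, searched as GAAANNGAAA on both strands and given in capitals, from RefSeq for build GRCm38.p6. The Ifit3 window is chr19:34583279-34583578 and the Ifit1 window chr19:34640639-34640938, both on the plus strand.
Ifit3: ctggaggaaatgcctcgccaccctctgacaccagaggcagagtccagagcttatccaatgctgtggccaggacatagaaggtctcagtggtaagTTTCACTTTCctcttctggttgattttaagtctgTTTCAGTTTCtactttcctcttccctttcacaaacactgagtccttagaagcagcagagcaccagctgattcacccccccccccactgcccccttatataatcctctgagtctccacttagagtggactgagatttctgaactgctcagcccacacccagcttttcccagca
Ifit1: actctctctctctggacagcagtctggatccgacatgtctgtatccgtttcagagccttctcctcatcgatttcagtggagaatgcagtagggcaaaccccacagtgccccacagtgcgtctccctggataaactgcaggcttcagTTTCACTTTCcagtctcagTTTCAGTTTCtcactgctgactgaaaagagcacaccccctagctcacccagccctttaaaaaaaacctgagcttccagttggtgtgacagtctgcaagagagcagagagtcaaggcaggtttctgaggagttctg
Each window held 2 matches. Of 24 list members with a window, 12 (50.0%) held the element, against 3.99% of 27025 genes. Binding was not measured.

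MicroRNA precursors were measured by probes to their genes, so the mature arms cannot be told apart. Of 16 measured precursors of pluripotency-associated families 1 was called higher and 4 lower in siPRMT1 (2 and 3 after quantile normalization), and the miR-302 cluster was not called. The share called was 31.2%, against 41.4% of all genes. The mature sequences of the 5 called members (RefSeq, GRCm38.p6) are shown with the seed, bases 2 to 8, in capitals, because 2 of them share a seed and moved in opposite directions.
mmu-miR-17-5p: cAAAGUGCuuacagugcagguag
mmu-miR-20a-5p: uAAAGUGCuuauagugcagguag
mmu-miR-19b-3p: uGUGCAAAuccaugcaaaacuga
mmu-miR-25-3p: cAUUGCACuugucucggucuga
mmu-miR-363-3p: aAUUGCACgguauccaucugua
The first 3 lie in the miR-17 to miR-92 cluster on the plus strand, at chr14:115043684-115043706, chr14:115044183-115044205 and chr14:115044358-115044380, with miR-25 at chr5:138165332-138165353 and miR-363 at chrX:52741697-52741718 on the minus strand. Mir363 read 7.53, 7.48 and 7.50 in siPRMT1 day 4, against 4.55, 4.67 and 4.94 in siPRMT1 ES, a change of 2.78 ± 0.259 (adjusted p = 2.58e-08). Its ES values lay below every array's median over probe sets, 7.47 to 7.67, and signal over background could not be judged. Mir25, with the same seed AUUGCAC, read 8.60, 8.64 and 8.58 in siPRMT1 day 4, against 8.99, 9.12 and 9.29 in siPRMT1 ES, a change of -0.53 ± 0.133. Mir17 and Mir20a, with the seed AAAGUGC, fell by 0.47 and 1.03, and Mir19b-1, with the seed GUGCAAA, by 0.82. The arrays of Mir17 overlapped between the groups, and Mir20b, Mir106a, Mir106b and Mir93, whose 5p arms carry the seed AAAGUGC as well, were not called, at -0.15 to 0.41. The falls of Mir20a and Mir19b-1 were smaller than in siSCR, by 0.68 and 1.14. Of 33 measured precursors of lineage microRNAs 0 were called higher and 5 lower (3 to 13 over the alternatives), in all 15.2% against 41.4% of all genes. Mirlet7d changed by -0.82, Mir125a by -0.52 and Mirlet7e by -0.42. The median of the list was -0.17, against -0.0430 over all genes and 0.00074 without the dimmest 25% of genes. Its averages in siPRMT1, 5.829 to 5.846 at day 4 and 5.937 to 6.134 in ES, lay below every array's median over probe sets, 7.47 to 7.67.

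Over all genes, the same direction was called in both lines for 3257 genes, which are 39.5% of the siPRMT1 calls and 57.8% of the siSCR calls. Opposite directions were called for 563. Another 4432 genes were called in siPRMT1 only at this threshold, and the difference between the lines was called for 2108 of them and not for 2324. Across genes, which are not independent replicates, the changes in the 2 lines correlated at r = 0.626 and rho = 0.425, with an SD of 0.418 in siPRMT1 and 0.370 in siSCR. Of the 4754 called differences, 63.0% were more positive in siPRMT1 as fitted, 52.1% after quantile normalization, 48.6% after centring each array on its median and 52.7% after scaling each array to one SD. Of the 402 genes that rose at least 2-fold in siPRMT1, 312 rose more than in siSCR by the test and 8 less, and of the 251 that fell at least 2-fold, 85 fell more and 78 less. These genes were picked by their siPRMT1 change, which enters the difference.

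**Figure D5:**
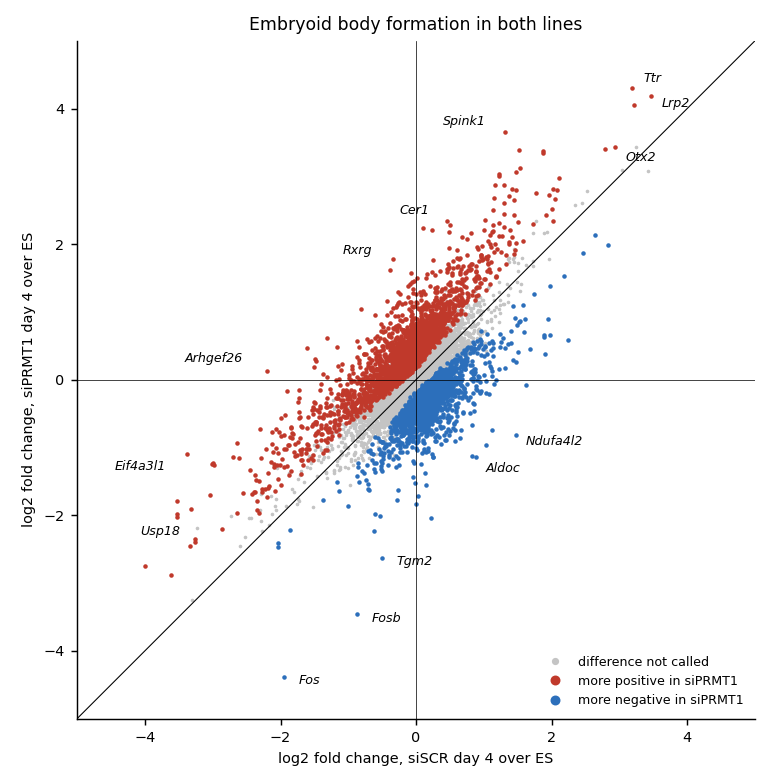
Log2 fold change of day 4 over ES in siPRMT1 (vertical axis) against siSCR (horizontal axis), 1 point per gene, with the diagonal of equal change. Red points are genes whose change was called more positive in siPRMT1 (2994), blue points more negative (1760), and grey points were not called. Ttr and Lrp2 lie at the upper right above the diagonal, and Fos and Fosb lie below it.

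Of the 10 largest positive differences, 4 were set mainly by siPRMT1 rising where siSCR did not rise by the test, namely Rxrg, described with the retinoid genes, Lpar4, Il33 and Cer1. The lysophosphatidic acid receptor gene Lpar4 read 9.92, 9.71 and 9.80 in siPRMT1 day 4, against 7.71, 7.51 and 7.50 in siPRMT1 ES. In siSCR it read 8.64, 8.47 and 8.80 at day 4, against 8.61, 8.60 and 8.43 in ES. The siPRMT1 groups lay apart and the siSCR groups overlapped, with a difference of 2.14 ± 0.17 (adjusted p = 2.08e-08). The cytokine gene Il33 rose by 1.61 in siPRMT1, against a change of -0.39 that was not called in siSCR, and Cer1 rose by 2.34, against 0.45 that was not called. The semaphorin gene Sema6a rose in both lines, by 2.21 and 0.24, as did Spink1, by 3.65 and 1.31.

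In other genes of that group the fall in siSCR made up most of the difference. The exchange factor gene Arhgef26 read 8.00, 7.78 and 7.82 in siPRMT1 day 4, against 7.92, 7.70 and 7.59 in siPRMT1 ES. In siSCR it read 7.10, 6.82 and 7.00 at day 4, against 9.24, 9.09 and 9.17 in ES. The siPRMT1 groups overlapped (0.13, adjusted p = 0.423), and the fall in siSCR was 4.57-fold. Eif4a3l1 fell in both lines, by 1.09 and 3.38. The immunity GTPase gene Irgm1 and the lipopolysaccharide coreceptor gene Ly96 rose by 0.47 and 0.61 in siPRMT1 and fell by 1.61 and 1.31 in siSCR.

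The 10 largest negative differences included Fosb (-2.60), Fos (-2.44), Ndufa4l2 (-2.29), Tgm2 (-2.13) and Aldoc (-2.03). The means of Fosb were 10.82 in siPRMT1 ES and 8.26 in siSCR ES, against 7.35 and 7.39 at day 4. Those of Fos were 11.58 and 9.65 in ES cells, against 7.20 and 7.71 at day 4. Both genes thus differed more between the lines in ES cells than at day 4. The protease inhibitor gene A2m read 9.04, 8.96 and 8.82 in siPRMT1 day 4, against 9.96, 9.89 and 9.85 in siPRMT1 ES, and 9.83, 10.19 and 10.01 in siSCR day 4, against 9.05, 8.86 and 9.05 in siSCR ES. The 2 lines moved in opposite directions by nearly equal amounts, -0.96 and 1.03. The cyclin domain gene Cntd1 and the matrix gene Crtac1 also fell in siPRMT1, by 1.12 and 0.75, and rose in siSCR, by 0.83 and 1.12. Got1l1, related to an aspartate aminotransferase, and the dehydrogenase gene Dhrs7 fell by 1.84 and 1.55 in siPRMT1, and in siSCR their changes of -0.01 and 0.15 were not called.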

How the data were processed

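The values were log2 expression values per probe set for 24 arrays of a whole-transcript Affymetrix design, from total RNA of 300 ng per the labels' protocols. The authors deposited these log2 values already summarised, and how probes were summarised and normalized is not stated in the sources used here. Genes were named through the platform's probe annotation: 21789 of 35556 probe sets had 1 symbol, 1621 several and 12146 none, and the brightest set stood for each of 19938 genes. Groups came from the sample titles. One limma model (limma 3.58.1, R 4.3.3) of 8 group means over 24 arrays, with 16 residual degrees of freedom, gave day 4 minus ES in siPRMT1, the same in siSCR, and the difference between these changes. P-values were adjusted by Benjamini-Hochberg over all 19938 genes, with calls under 0.05. Named genes were the 15 largest called rises and 15 largest called falls in siPRMT1 whose groups did not overlap, and the 10 largest differences each way, passing over predicted, clone-named and small RNA genes and large receptor or gene-copy families. The members and lists were chosen with earlier results of these data known. Promoters and mature microRNAs came from RefSeq tables. The code was tested on simulated data. Alternatives were other scalings, probe rules, variance models, sample sets, a replicate block and leaving out each array.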

Additional observations from a re-analysis of the deposited data

Results flagged for a closer look

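For the results in this section the change between day 4 and ES differed between siPRMT1 and siSCR by the limma test of that difference, at an adjusted p under 0.05 over all genes. Values are the log2 change in siPRMT1 minus that in siSCR, with 3 arrays in each of the 4 groups. For the targeted gene Prmt1 the difference was 0.74. The genes had been picked for a large change in siPRMT1 or for a large difference, so the sizes are not independent of the choice.

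Among the largest rises in siPRMT1, the rise was larger than in siSCR for Spink1 (2.35), Cdh9 (1.87), Cyp26a1 (1.82), Dgkk (1.59), Apoa1 (1.58), Has2 (1.51), Muc13 (1.47), Ttr (1.12), Pga5 (0.83), Lrp2 (0.72), Clic6 (0.63) and Otx2 (0.51). Among the largest falls, the fall was larger than in siSCR for Fosb (-2.60), Fos (-2.44), Tgm2 (-2.13), Igsf21 (-1.62), Ptgs2 (-0.43), Egr1 (-0.38) and Dcn (-0.37). It was smaller than in siSCR for Tmem92 (0.90), Trim30a (0.88), Usp18 (0.86), Efemp1 (0.73) and Ankrd1 (0.66).

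The other large positive differences were those of Arhgef26 (2.32), Eif4a3l1 (2.29), Lpar4 (2.14), Rxrg (2.12), Irgm1 (2.07), Il33 (2.00), Sema6a (1.97), Ly96 (1.92) and Cer1 (1.89). The other large negative differences were those of Ndufa4l2 (-2.29), Aldoc (-2.03), A2m (-1.99), Cntd1 (-1.95), Crtac1 (-1.86), Got1l1 (-1.83) and Dhrs7 (-1.70).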

How the results depend on the processing

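The genes named as the largest rises, falls and differences gave 920 values under the alternatives, which kept their direction and their side of the threshold. These genes had been picked for the size of a called change or difference, which favours that outcome. The 920 values do not cover the other list members given in the text, many of which changed less. The number of genes called in siPRMT1 was 8252, and 9625 without the siSCR arrays of DMSO and retinoic acid, 9290 with only the groups compared and 6852 to 7795 when each array was left out in turn. In siSCR these single omissions gave 4661 to 5151 genes, for the difference between the lines 4015 to 4553, and for the change of Prmt1 a value of 0.60 to 0.69. Array weights raised the count to 10623 in siPRMT1, 8969 in siSCR and 7688 for the difference. Asking for at least 2-fold left 653 genes in siPRMT1, 550 in siSCR and 343 for the difference, by its construction. The share called higher in siSCR was 51.3%, and 66.1% with arrays centred on their medians. Among list results, 51 counts and 54 medians moved, against 1317 and 1314 that did not, and the cause was not tested. With the replicate number as a replicate block, 8253 genes were called in siPRMT1, 5602 in siSCR and 4746 for the difference. Same-numbered day 4 and ES arrays deviated together at correlations of -0.07 to 0.09 in siPRMT1 and -0.08 to 0.51 in siSCR. Arrays with unlike numbers did so at -0.11 to 0.04 in siPRMT1 and -0.52 to 0.31 in siSCR. The numbers were not taken as pairs because the labels do not say that they pair the samples. Precision is limited by 3 arrays per group, signal over background could not be judged from these values, and counts of calls depend on how widely the other groups spread.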

Other observations

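Gene families defined by their symbols were counted between siPRMT1 day 4 and ES, beside 23.0% of all genes called higher and 18.4% called lower. Some of their members, such as Col4a1, Slc7a11 and Zfp36, also belong to lists in the report, so these counts are not separate from those. Of 377 measured solute carriers, the transporters of nutrients and ions, 113 were called higher and 56 lower, and 25 rose and 1 fell at least 2-fold, with the iron exporter gene Slc40a1 and the amino acid transporter gene Slc7a8 among the risers. Of 20 cathepsin genes, the lysosomal proteases, 8 were called higher and 2 lower. Of 21 genes of the proton pump that acidifies endosomes 13 were called higher and 2 lower (9 and 2 after quantile normalization and with arrays scaled to one SD). All 4 measured metallothionein genes were called higher, Mt1 and Mt2 by at least 2-fold, and all 4 were called higher in siSCR too. Of 347 zinc finger genes with Zfp symbols 159 were called higher and 20 lower, with a median of 0.22. Of 35 DEAD-box helicase genes 16 were called higher and 2 lower in siPRMT1 (16 and 6 after quantile normalization, 15 and 5 with arrays scaled to one SD), against 1 and 8 in siSCR, and the difference was called more positive in siPRMT1 for 15 and more negative for 0 (11 to 15 and 0 to 1 over the scalings tried).

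Of 34 chemokine ligand genes 2 were called higher, 12 lower and 20 neither way, and Ccl2, Ccl3, Ccl5, Ccl9 and Cxcl10 fell at least 2-fold, whereas Ccl25 rose at least 2-fold. Ccl2, which attracts monocytes, read 8.54, 8.41 and 8.39 in siPRMT1 day 4, against 10.12, 10.00 and 10.07 in siPRMT1 ES, and the groups did not overlap. Of 44 collagen genes 3 were called higher, 19 lower and 22 neither way, and of 12 annexin genes 1 and 7. Of the fibroblast and feeder markers, which include several of these collagens, 16 of 19 were called lower, and their part in the result was not tested.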
